A study of Mus musculus with 17 samples.

Results

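Among the mutant p53 tumour cells of this mouse study, 4 libraries stood apart by their level of Myc RNA, and those 4 are set here against the other 8. The 12 libraries were 10 tumour lines and 2 clones of such a line, of 17 libraries in the whole series. A library was called Myc-high when Myc reached 500 CPM, the usual unit of a gene's count scaled to a common library total, and Myc-low when it did not. The classes were therefore chosen by the Myc level of these same libraries, so the difference in Myc itself is the choice and not a result.

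All 12 libraries go back to mesenchymal stem cells (MSCs) from the bone marrow of C57BL/6 mice with the R172H knock-in allele of p53, and no treatment was given. First-generation tumour lines (TL1) were grown from tumours of such MSCs, and second-generation lines (TL2) from tumours that formed after TL1 cells were injected. The Myc-high class held both mutant p53 clones (Mut clone 1 and 2), the second-generation line TL2 3 and the first-generation line TL1 3b. The Myc-low class held TL1 1a, TL1 1b, TL2 1, TL1 2a, TL1 2b, TL2 2a, TL2 2b and TL1 3a, where the number is the one in the line's title and a letter tells lines of the same number apart. The labels call the clones clones of a first-generation line and do not give its number. Tumour cells grew over agar, in medium that held the cytokine LIF (leukaemia inhibitory factor), at passage 2 to 20. The 3 MSC libraries and the 2 clones titled p53 knockout (KO), which had 77.0 and 82.8 CPM of Trp53, were outside the classes, and their values are given only where named. Nothing in the labels states that libraries of the same number came from separate mice, so the spread between them may be partly that of sister cultures. The same holds for the 2 Mut clones, which may come from 1 line. Every library held 12215025 to 15962341 counts.

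Myc is a transcription factor that binds DNA as a partner of Max, with a preference for the letters CACGTG (the E-box). In many cell types it raises genes of ribosome assembly, nucleotide and polyamine synthesis and glucose use, and its dose is often increased in tumours. Pvt1, a long noncoding RNA gene next to Myc, is often raised or copied with it. In myoblasts Myc is also known to hold back muscle differentiation.

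The labelled origin was checked first. Vim, the intermediate filament of mesenchymal cells, had 2052, 4457, 2394 and 4929 CPM by total in Mut clone 2, Mut clone 1, TL2 3 and TL1 3b, and 1775 to 4730 in the Myc-low libraries. Cd44 ranged over 368 to 504.5 CPM in the Myc-high and 151 to 440 CPM in the Myc-low libraries. Other stromal markers went different ways. Pdgfrb, a receptor of mesenchymal cells, had 2.46, 9.52, 61.2 and 117 CPM in the Myc-high and 36.1 to 447.6 CPM in the Myc-low libraries. Eng had 3.19 to 17.8 CPM in the Myc-high and 1.86 to 3.97 CPM in the Myc-low libraries, Nt5e 12.9 to 43.0 and 0.21 to 60.2 CPM, and Ly6a 29.1 to 312 and 2.01 to 343 CPM. Thy1, a defining surface marker of MSCs, was nearly absent, with at most 3.27 CPM in a Myc-high and 2.25 CPM in a Myc-low library. Ptprc, the pan-leukocyte marker, stayed at or below 0.29 CPM in all 12, and Cdh5, of endothelium, at or below 0.44 CPM. The summed level of 18 macrophage and haematopoietic markers was 14.4 to 52.1 CPM in the Myc-high and 15.5 to 61.7 CPM in the Myc-low libraries. Endothelial markers summed to 13.7 to 25.5 CPM in the Myc-high and 2.76 to 11.8 CPM in the Myc-low libraries, and epithelial markers to 39.3 to 478.5 CPM and 9.68 to 85.1 CPM. Neural markers summed to 161.9 to 316.4 CPM in the Myc-high and 358.8 to 1314 CPM in the Myc-low libraries. The part of those markers in the results below was not tested, and in such bulk RNA fewer cells of a type and less RNA per cell cannot be told apart.

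Myc had 2043 CPM in Mut clone 2, 1780 in Mut clone 1, 1090 in TL2 3 and 661.6 in TL1 3b, against 97.4 to 239.4 CPM in the Myc-low libraries. The libraries next to the threshold were thus TL1 3b inside it and TL1 2a outside it. The 3 MSC libraries had 141 to 172 CPM and both KO clones 131 and 126 CPM, in the range of the Myc-low lines. Both Mut clones were above both lines, and the 2 lines labelled with number 3 in the Myc-high class differed from the third line of that number, TL1 3a, which had 142.5 CPM. All values from here on are CPM after TMM scaling (trimmed mean of M values), which moves Myc to 2010, 1793, 1023 and 631 CPM and a Myc-low range of 97.2 to 244 CPM with a median of 174 CPM.

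**Figure D1:**
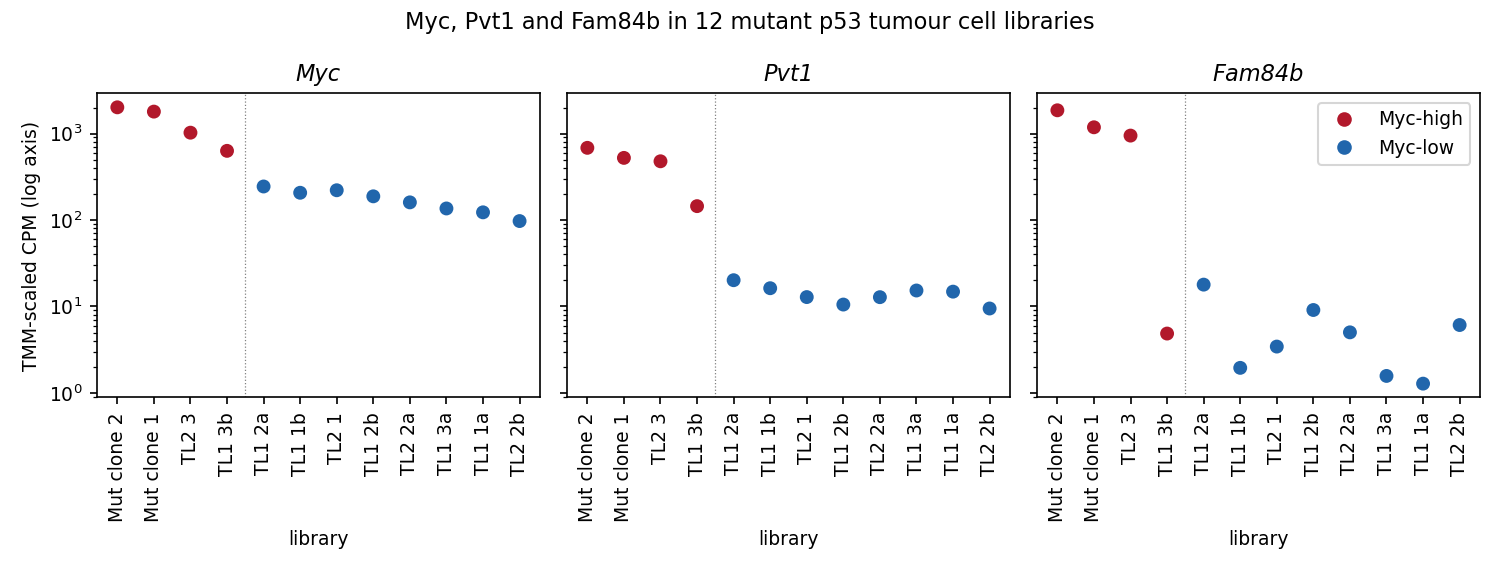
TMM-scaled CPM (log axis) of Myc, Pvt1 and Fam84b in each of the 12 libraries, Myc-high in red at the left and Myc-low in blue at the right, ordered by Myc level. Myc and Pvt1 leave a gap between the classes, whereas Fam84b is at 946.6 CPM or above in both Mut clones and TL2 3 and at 4.87 CPM in TL1 3b.

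Around Myc the raised genes formed a short stretch, and TL1 3b held less of it than the other 3 Myc-high libraries. Myc lies at chr15:61985341-61990361 (mm10, positions of the GRCm38.p6 annotation) and Pvt1 starts 53 kb after it. Pvt1 had 684, 523, 478 and 145 CPM in Mut clone 2, Mut clone 1, TL2 3 and TL1 3b, against a lowest value of 9.48, a median of 13.8 and a highest of 20.1 CPM in the Myc-low libraries. The order of the 4 libraries was that of Myc, and the log2 difference between the class fits was 5.03 ± 0.33 (SE) for Pvt1, beside 2.99 ± 0.31 for Myc. H2afy3, which is annotated inside the span of Pvt1 so that reads of the pair may be shared, had 3.95, 5.60, 2.34 and 3.497 CPM in the Myc-high libraries and at most 0.26 in the Myc-low ones.

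Fam84b, with a start at -1166 kb from that of Myc, showed another pattern. It had 1857, 1181 and 947 CPM in Mut clone 2, Mut clone 1 and TL2 3, but 4.87 CPM in TL1 3b, which lay inside the Myc-low range of 1.28 to 17.9 CPM. The overlapping transcript 9930014A18Rik had 120, 121, 76.3 and 1.22 CPM in the same 4 libraries and 0.20 to 1.82 CPM in the Myc-low ones. Those 2 genes thus separated 3 Myc-high libraries from all others and did not mark TL1 3b.

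Within 5 Mb on either side of Myc, 34 genes of 55 passed the filter on low counts, and 3 (Myc, Pvt1 and H2afy3) kept the classes apart at 2-fold or more. The 29 tested genes other than those 3 and the Fam84b pair had log2 differences of -2.10 to 1.17 with a median of -0.12, and 11 were positive. No tested gene beyond Fam84b on one side or beyond Pvt1 on the other was counted.

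**Figure D2:**
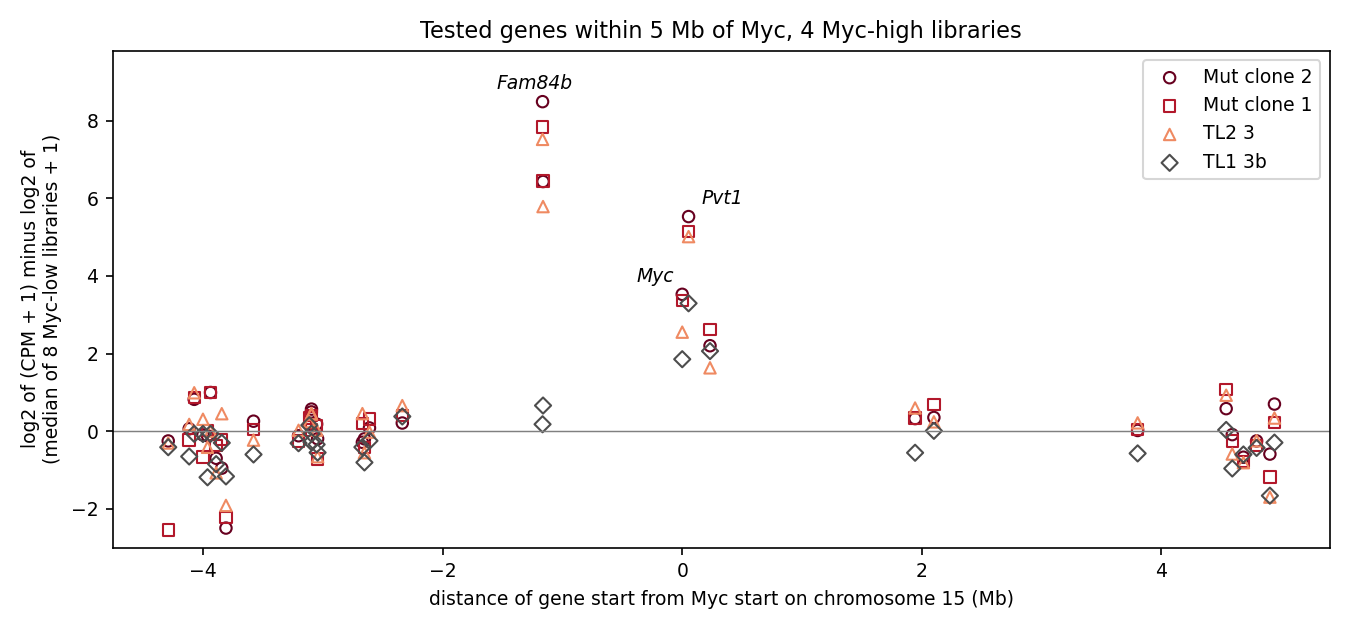
Log2 level of each tested gene within 5 Mb of Myc in the 4 Myc-high libraries, relative to the median of the 8 Myc-low libraries (CPM + 1), against the distance of its start from that of Myc. Mut clone 2, Mut clone 1 and TL2 3 are high at Fam84b, Myc and Pvt1, TL1 3b is high at Myc and Pvt1 and not at Fam84b, and the outer genes scatter around 0.

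Across the genome 13400 genes passed the filter. A gene was counted as higher or lower when the 4 Myc-high and 8 Myc-low libraries did not overlap and the difference between the class fits was at least 2-fold. By that count 290 genes were higher (2.16% of those tested) and 331 lower (2.47%) in the Myc-high libraries, and the median log2 difference of all genes was -0.08. These counts carry no p, because the classes were made from the RNA of the same libraries. Of all 13400 genes, 5902 had a positive log2 difference, the figure to set beside the counts of positive differences in the lists below. TL1 3b was the Myc-high library nearest to the Myc-low class at 135 of the 290 higher and 187 of the 331 lower genes. Without it 472 genes were higher and 698 lower, and without TL1 3a 446 were higher. Correlations of log2 levels ran over 0.92 to 0.98 within the Myc-high class, 0.85 to 0.97 within the Myc-low class and 0.82 to 0.92 between them.

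Tests were made only between groups given by the titles, over all genes, with edgeR's quasi-likelihood test and Benjamini-Hochberg adjustment at 0.05. Against the lines numbered 1 and 2, 869 genes rose (6.49%) and 753 fell (5.62%) in the Mut clones. Against the same lines, 826 rose (6.16%) and 506 fell (3.78%) in the lines numbered 3, which hold 2 Myc-high lines and the Myc-low TL1 3a. Both comparisons share the lines numbered 1 and 2. The 2 Mut clones may be sister cultures and had the highest correlation of any pair of the 12 libraries (0.975), so their n = 2 may overstate independent replication. Without Mut clone 2 the first comparison had 25 genes risen and 6 fallen, and without Mut clone 1 it had 202 and 58. Without TL2 3 the second had 311 and 74, without TL1 3b 318 and 102, without TL2 1 383 and 227, and without TL1 2b 437 and 206. Its fallen genes numbered 305 without TL1 2a, 279 without TL1 3a, 291 without Mut clone 2 and 270 without Mut clone 1, and those of the first comparison 470 without TL1 2b and 487 without TL2 2a. The origin of the lines and their Myc level cannot be told apart here, since every Myc-high library was a clone or a line numbered 3. Genes named from here on for their separation were picked in these libraries, so a test result beside such a gene is no independent support.

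Of 29 tested members of the Myc and Max network 1 was higher and 0 lower by the class count, near the 2.16% and 2.47% of all genes. Their median log2 difference was 0.03. By edgeR 4 of the 29 rose and 1 fell in the Mut clones (6.49% and 5.62% of all genes), and 2 rose and 2 fell in the lines numbered 3 (6.16% and 3.78% of all genes). Max, the shared partner, had 167, 168, 141 and 176 CPM in the Myc-high libraries against a lowest value of 67.3, a median of 100.3 and a highest of 186 CPM in the Myc-low ones, so the classes overlapped. Mycn, the relative of Myc expressed in early neural and mesenchymal tissue, had 0 counts in all 4 Myc-high libraries and at most 4.37 CPM in a Myc-low library, where 2 of 8 had 0 too. Mycl1, the other relative of Myc in the list, had 14.9, 18.3, 12.1 and 10.1 CPM in the Myc-high libraries, 20.6 CPM in TL1 3a and 0.86 to 8.75 CPM in the other Myc-low libraries. It rose by 2.82 ± 0.49 (log2, SE, n = 3 against 7, edgeR adjusted p = 0.0123) in the lines numbered 3. In the Mut clones it rose by 3.04 ± 0.53 (n = 2 against 7, edgeR adjusted p = 0.00978), a call lost without either clone (highest adjusted p 0.0885). Mxi1, a Max-binding antagonist of Myc, had 98.8, 140, 160 and 137 CPM in the Myc-high libraries and 19.6 to 115 CPM in the Myc-low ones. The value of 115 CPM belonged to TL1 3a. In the tests Mxi1 rose by 1.62 ± 0.29 (log2, SE, n = 3 against 7) in the lines numbered 3, with an edgeR adjusted p of 0.013 that stayed between 0.00849 and 0.0468 when 1 library was left out. The member counted higher was Ruvbl2, an ATPase that acts as a cofactor of Myc, at 213, 275, 140 and 136 CPM in the Myc-high libraries and 45.01 to 119 CPM in the Myc-low ones.

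Few genes of growth that Myc is best known to raise passed the class count, as was so for all genes tested. Of 40 ribosome biogenesis and nucleolar genes 0 were higher and 0 lower, near the 2.16% and 2.47% of all genes. Their median log2 difference was 0.10, beside -0.08 for all genes. In the edgeR tests 2 of the 40 rose in the Mut clones (6.49% of all genes), and 5 fell in the lines numbered 3 (3.78%). Nucleolin (Ncl), an abundant nucleolar protein, had 1966, 2515, 1158 and 1435 CPM in the Myc-high libraries against a lowest value of 585, a median of 1066 and a highest of 1556 CPM in the Myc-low ones. Nolc1, a nucleolar chaperone, had 506, 594, 254 and 229 CPM in the Myc-high libraries and 123 to 510 CPM in the Myc-low ones. In both genes the Mut clones were near or above the top of the Myc-low range and the 2 Myc-high lines were inside it. The list median per library, relative to the median library, was 0.63 and 0.40 in the Mut clones, -0.35 in TL2 3 and -0.31 in TL1 3b, and ran from -1.16 in TL1 3a to 0.66 in TL2 1 among the Myc-low libraries.

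Nucleotide and one-carbon synthesis had 0 of 32 genes counted in either direction, near the 2.16% and 2.47% of all genes. Its median log2 difference was 0.10. Cad, which starts pyrimidine synthesis, had 198, 177, 126 and 126 CPM in the Myc-high libraries and 111 to 319 CPM in the Myc-low ones. Among 11 polyamine genes 1 was higher and 0 lower, beside 2.16% and 2.47% of all genes. It was Sms (spermine synthase), with 158, 224, 155 and 144 CPM against 51.1 to 121 CPM. Odc1, the rate-limiting enzyme of that pathway, overlapped, at 984, 702, 390 and 440 CPM in the Myc-high libraries and 145 to 810 CPM in the Myc-low ones. Of 27 translation genes 1 was lower, the alanyl-tRNA synthetase gene Aars, near the 2.47% of all genes. Of 23 genes of mitochondrial biogenesis and chaperones none passed the class count. The edgeR tests called 1 of those 23 higher and 1 lower in the Mut clones (6.49% and 5.62% of all genes). In the lines numbered 3 they called 3 lower (3.78%).

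No gene of the proliferation lists was counted higher. Of 26 genes of cell cycle entry and S phase 0 were higher and 1 lower, near the 2.16% and 2.47% of all genes. Among them 5 had a positive difference, and the median was -0.52. By edgeR 1 of the 26 fell in the Mut clones (5.62% of all genes) and 6 fell in the lines numbered 3 (3.78%). In both tests 0 of the 26 rose. The lines numbered 3 include the Myc-low TL1 3a, which had the lowest list median of the 12 libraries, at -1.27. That median was -0.20 in Mut clone 2, 0.10 in Mut clone 1, -0.61 in TL2 3 and -0.25 in TL1 3b. In the other Myc-low libraries it ran from -0.185 in TL1 1a to 0.75 in TL2 1. Of 20 mitosis genes 0 were counted either way and 2 had a positive difference, with a median of -0.39. By edgeR 0 of the 20 were called in the Mut clones and 1 fell in the lines numbered 3. The mitosis list median was -0.62 in Mut clone 2, 0.37 in Mut clone 1, -0.88 in TL2 3 and 0.02 in TL1 3b. In the Myc-low libraries it ran from -1.21 in TL1 3a to 0.86 in TL2 1. Mki67, a marker of cycling cells, had 94.9, 216, 80.0 and 231 CPM in the Myc-high libraries and 107 to 388 CPM in the Myc-low ones. Cyclin D3 (Ccnd3) was the gene lower in all Myc-high libraries, at 62.6, 95.9, 145 and 140 CPM against a lowest value of 188, a median of 247 and a highest of 408 CPM.

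Among 25 cell cycle inhibitors and growth arrest genes, 2 were higher and 0 lower, beside 2.16% and 2.47% of all genes. By edgeR 2 rose and 3 fell in the Mut clones (6.49% and 5.62% of all genes). In the lines numbered 3, 2 rose and 1 fell (6.16% and 3.78%). Cdkn2b, which encodes the CDK4 and CDK6 inhibitor p15, had 135, 153, 212 and 175 CPM in the Myc-high libraries and 0.93 to 134 CPM in the Myc-low ones, with TL1 3a at 134 just below Mut clone 2. Klf4, a zinc-finger factor of pluripotent and quiescent cells, had 255, 112, 221 and 79.9 CPM in the Myc-high libraries against a lowest value of 11.5, a median of 20.6 and a highest of 47.7 CPM in the Myc-low ones. Cdkn1a, which encodes p21, had 13.7 and 12.02 CPM in the Mut clones, 33.8 in TL2 3 and 65.8 in TL1 3b, and 43.3 to 315 CPM in the Myc-low libraries. TL1 3b was thus inside the Myc-low range of Cdkn1a. Of 29 tested p53 targets 0 were counted in either direction, near the 2.16% and 2.47% of all genes, with a median of 0.02. Trp53 itself had 283, 364, 229 and 282 CPM against 126 to 333 CPM.

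Several genes of glucose use were higher in all Myc-high libraries than in any Myc-low one. Of 18 genes of glycolysis and of glucose or lactate transport, 6 were higher and 0 lower, beside 2.16% of all genes, and 15 had a positive difference; the median was 0.57. Slc2a1, the glucose transporter GLUT1, had 148, 231, 244 and 362 CPM in the Myc-high libraries against a lowest value of 81.0, a median of 98.6 and a highest of 141 CPM in the Myc-low ones. Pfkp, a phosphofructokinase that commits glucose to glycolysis, had 158, 176, 165 and 174 CPM in the Myc-high libraries and 33.6 to 90.9 CPM in the Myc-low ones. Pdk1, which inhibits pyruvate dehydrogenase, had 122, 149, 115 and 152 CPM against 27.9 to 77.7 CPM. The spread within the Myc-high class was narrow for Pfkp and Pdk1, and TL1 3a was the highest Myc-low library for Slc2a1, Pfkp and Pdk1.

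Further down the pathway the gap was smaller for the enzymes and larger for lactate export. Pgk1 had 2435, 3208, 1753 and 3053 CPM in the Myc-high libraries and 849 to 1657 CPM in the Myc-low ones. Ldha, which turns pyruvate into lactate, had 1991, 2389, 1330 and 2309 CPM against 696 to 1293 CPM. Slc16a3, the lactate exporter MCT4, had 547, 553, 409 and 595 CPM in the Myc-high libraries against a lowest value of 24.4, a median of 97.2 and a highest of 227 CPM in the Myc-low ones. Its log2 difference was 2.18 ± 0.51 (SE), against 1.03 ± 0.21 for Ldha and 1.11 ± 0.21 for Pgk1. Aldoc, the aldolase of neural tissue, was also higher, at 13.5, 14.9, 82.8 and 54.9 CPM against 0.30 to 10.6 CPM, and TL1 3a held the highest Myc-low value with the next at 0.84. By edgeR 4 of the 18 list members rose in the Mut clones and 3 in the lines numbered 3, beside 6.49% and 6.16% of all genes. Pdk1 rose by 1.48 ± 0.26 (log2, SE, n = 3 against 7) in the lines numbered 3, with an adjusted p of 0.0123 that stayed at or below 0.0468 without any 1 library.

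The upstream sequences of 4 of those 6 genes are shown because they hold the letters ACGTG, the core that both the E-box of Myc and Max and the hypoxia-response element share. Each is the 250 bases before a transcript start listed by RefSeq (GRCm38.p6), 5′ to 3′ on the strand of the gene. The annotated spans of Ldha and Slc16a3 begin further upstream, so their windows lie inside those spans. Capitals mark ACGTG or, for the other strand, CACGT, so a run of 6 capitals is a whole CACGTG.
Slc2a1 promoter, chr4:119108495-119108744, plus strand: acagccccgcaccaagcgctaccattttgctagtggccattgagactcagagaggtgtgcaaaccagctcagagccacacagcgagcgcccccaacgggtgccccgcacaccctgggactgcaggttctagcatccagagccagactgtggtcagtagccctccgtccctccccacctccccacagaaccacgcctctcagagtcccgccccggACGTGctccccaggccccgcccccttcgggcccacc
Pgk1 promoter, chrX:106186850-106187099, plus strand: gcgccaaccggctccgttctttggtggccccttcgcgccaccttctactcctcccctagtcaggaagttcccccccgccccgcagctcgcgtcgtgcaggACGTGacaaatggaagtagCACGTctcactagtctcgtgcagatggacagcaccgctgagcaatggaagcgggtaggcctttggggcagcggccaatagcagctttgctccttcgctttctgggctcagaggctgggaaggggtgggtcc
Ldha promoter, chr7:46845554-46845803, plus strand: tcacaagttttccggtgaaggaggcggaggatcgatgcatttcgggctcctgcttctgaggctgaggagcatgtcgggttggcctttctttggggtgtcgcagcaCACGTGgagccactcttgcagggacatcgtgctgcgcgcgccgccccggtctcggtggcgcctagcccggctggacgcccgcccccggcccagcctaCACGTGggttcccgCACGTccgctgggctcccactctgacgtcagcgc
Slc16a3 promoter, chr11:120948817-120949066, plus strand: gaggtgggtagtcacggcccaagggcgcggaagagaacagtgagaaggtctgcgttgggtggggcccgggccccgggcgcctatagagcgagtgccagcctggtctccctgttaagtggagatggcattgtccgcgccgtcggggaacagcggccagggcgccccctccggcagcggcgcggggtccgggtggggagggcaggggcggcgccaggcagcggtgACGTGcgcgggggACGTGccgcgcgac
Ldha held 3 such runs, of which 2 were whole E-boxes. Pgk1 and Slc16a3 held 2 each and Slc2a1 held 1, and the windows of Pdk1 and Pfkp held none. Of the first-listed promoters of all genes with an upstream entry in RefSeq, 16.6% held ACGTG on either strand and 6.05% held CACGTG, which contains it. Among tested genes with an entry the shares were 22.1% and 8.63%, among the 290 higher genes 22.2% and 10.6% (216 with an entry), and among the 331 lower genes 18.2% and 8% (225 with an entry). The glycolysis list had ACGTG in 8 of 18 promoters and CACGTG in 3, the hypoxia list had them in 9 and 2 of 14, the nucleotide synthesis list in 9 and 5 of 30, and the ribosome biogenesis list in 5 and 3 of 36. A match of letters describes the sequence and not binding.

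**Figure D3:**
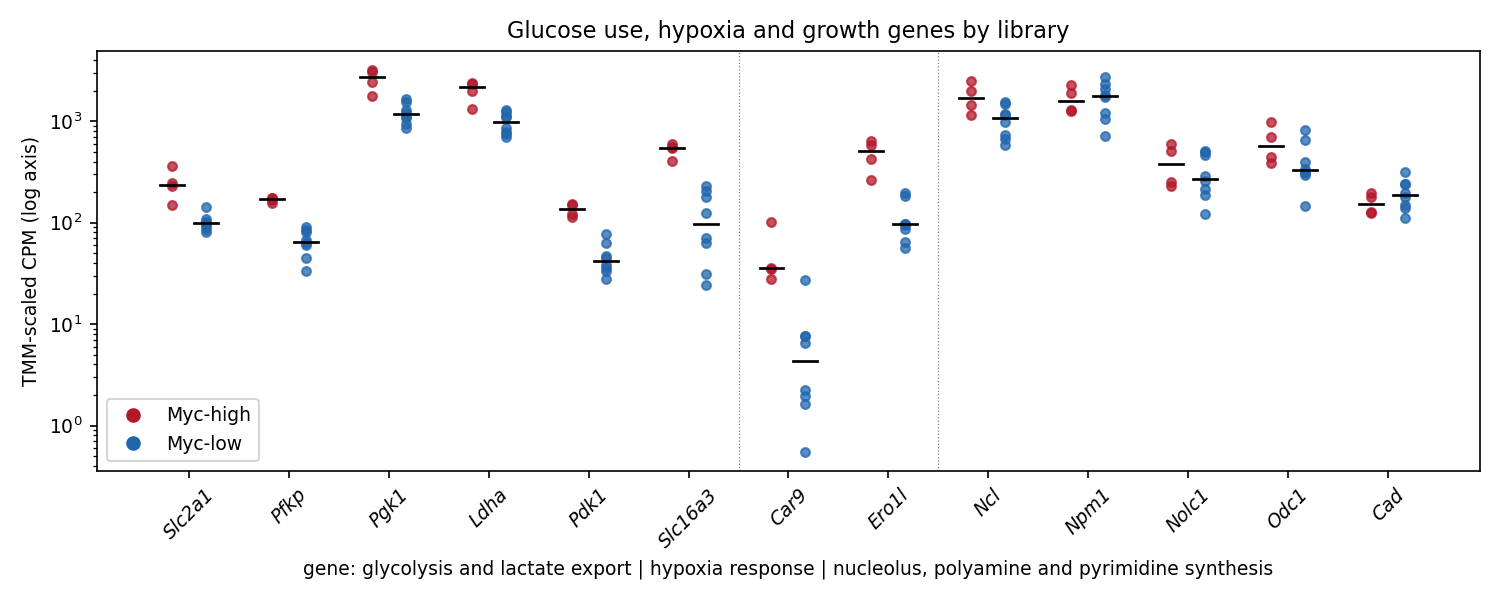
TMM-scaled CPM (log axis) of 13 genes in the 4 Myc-high (red, left of each pair) and 8 Myc-low libraries (blue, right), with class medians as bars. The 6 genes of glucose and lactate handling and both hypoxia genes leave a gap between the classes, and Ncl, Npm1, Nolc1, Odc1 and Cad overlap.

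Of 19 genes known to answer low oxygen 3 were higher and 0 lower, beside 2.16% and 2.47% of all genes, 15 had a positive difference and the median was 0.34. The list median per library was -0.274 in Mut clone 2, -0.111 in Mut clone 1, 0.16 in TL2 3 and 0.735 in TL1 3b. In the Myc-low libraries it ran from -0.353 in TL1 2b to 0.238 in TL1 3a, so the classes overlapped. Ero1l, an oxidase of the endoplasmic reticulum, had 643, 427, 589 and 265 CPM in the Myc-high libraries against a lowest value of 56.2, a median of 96.2 and a highest of 197 CPM in the Myc-low ones. The membrane carbonic anhydrases Car9 and Car12 were nearest to the Myc-low class through TL1 3a. Car9 had 27.9, 35.3, 36.1 and 102 CPM in the Myc-high libraries and 27.3 CPM in TL1 3a, and at most 7.72 CPM in the other Myc-low libraries. Car12 had 48.6, 77.0, 47.7 and 15.1 CPM in the Myc-high libraries and 14.4 CPM in TL1 3a. In the edgeR tests 3 genes of the list rose and 1 fell in the Mut clones (6.49% and 5.62% of all genes), and 8 rose in the lines numbered 3 (6.16%).

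Muscle genes were low in 3 of the 4 Myc-high libraries. Of 23 tested skeletal muscle genes 1 was counted lower, near the 2.47% of all genes. Of the 23, 0 had a positive difference, beside 5902 of all 13400 genes, and the median log2 difference was -3.41. Myod1, the factor that commits cells to skeletal muscle, had 0.16, 0 and 0.13 CPM in Mut clone 2, Mut clone 1 and TL2 3, but 117 CPM in TL1 3b, against a lowest value of 8.07, a median of 104 and a highest of 576 CPM in the Myc-low libraries. Desmin (Des), the intermediate filament of muscle, had 0.16, 0.52 and 0.19 CPM in those 3 libraries, 54.6 CPM in TL1 3b and 68.2 to 1589 CPM in the Myc-low libraries. Chrna1, a subunit of the muscle acetylcholine receptor, had 3.62, 3.32, 11.2 and 82.2 CPM in the Myc-high libraries and 88.4 to 472 CPM in the Myc-low ones. TL1 3b was thus next to or inside the Myc-low range for each of these genes. The list median per library was -2.20, -2.17 and -1.995 in the Mut clones and TL2 3 and 0.25 in TL1 3b, and TL1 3a had 3.41, the highest of the 12.

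Of 17 smooth muscle and contractile genes 2 were counted lower, beside 2.47% of all genes, and 2 had a positive difference, with a median of -1.10. Their list median was 0.25 in the Myc-high TL1 3b, and -0.45 in the Myc-low TL1 2a against -0.43 in Mut clone 1, so the classes overlapped. Myl9, a regulatory myosin light chain, had 0.16, 1.48, 5.87 and 25.0 CPM in the Myc-high libraries and 40.3 to 238 CPM in the Myc-low ones. Itga7, the laminin-binding integrin chain of muscle, had 28.3, 15.3, 38.2 and 103 CPM against 140 to 1071 CPM. Vgll3, a cofactor of the TEAD factors, had 0, 0.07, 0.25 and 6.46 CPM in the Myc-high libraries against a lowest value of 43.5, a median of 63.6 and a highest of 106 CPM in the Myc-low ones. In the edgeR tests 5 of 23 skeletal and 6 of 17 smooth muscle genes fell in the Mut clones, beside 5.62% of all genes. In the lines numbered 3 the counts were 1 of 23 and 2 of 17, beside 3.78% of all genes, so the skeletal count was near that share.

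**Figure D4:**
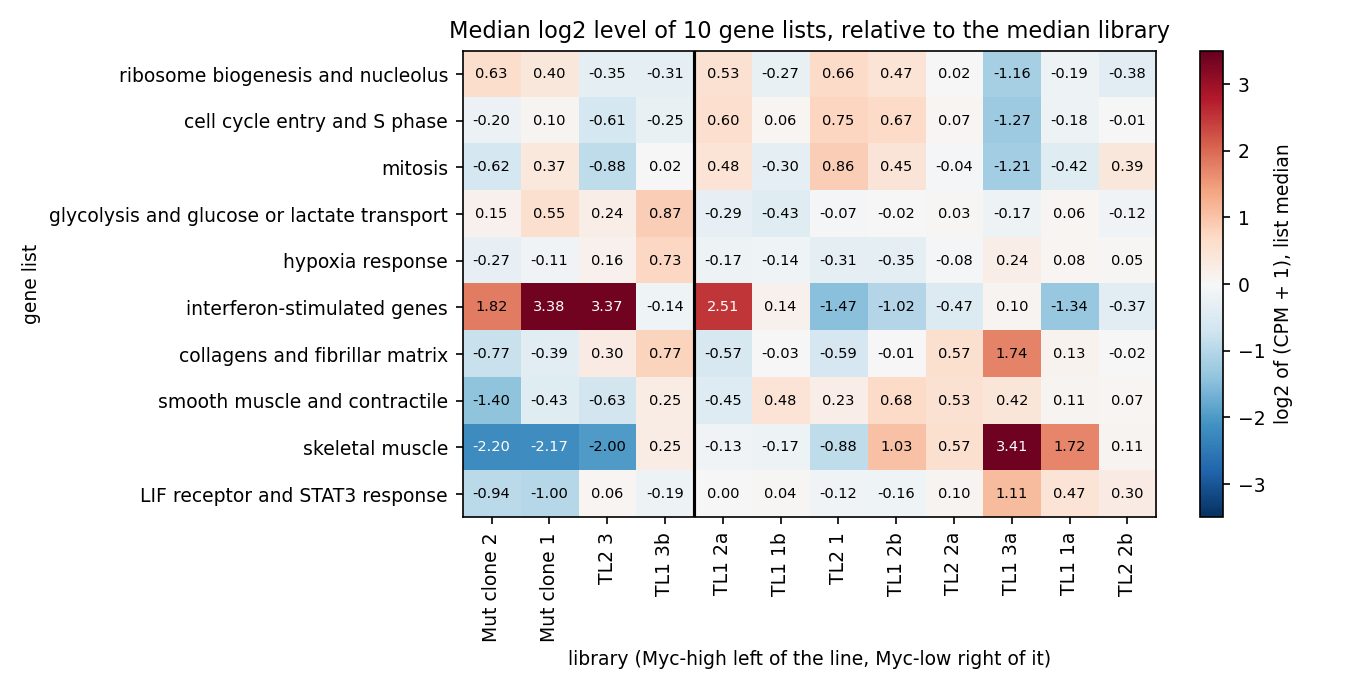
Median log2 (CPM + 1) of the tested members of 10 gene lists in each library, relative to the gene's median over the 12 libraries; Myc-high libraries are left of the line and Myc-low libraries right of it. Glycolysis is above 0 in all 4 Myc-high libraries, skeletal muscle is at -1.995 or below in 3 of them, and ribosome biogenesis has both signs in both classes.

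LIF was in the medium of all tumour cells. Of 15 genes of the LIF receptor and STAT3 response 4 were lower and 1 (Klf4) higher, beside 2.47% and 2.16% of all genes, with a median of -0.68. Lifr, the receptor, had 7.09, 4.35, 8.46 and 12.9 CPM in the Myc-high libraries against a lowest value of 17.3, a median of 31.1 and a highest of 79.4 CPM in the Myc-low ones. Socs2, a feedback inhibitor of cytokine signalling, had 8.38, 1.99, 7.26 and 18.8 CPM against 27.3 to 103 CPM. Junb, a partner in the AP-1 factor, had 79.4, 70.5, 133 and 195 CPM in the Myc-high libraries and 230 to 495 CPM in the Myc-low ones, whereas Jun, another AP-1 member, had 226, 214, 287 and 241 CPM and 51.6 to 171 CPM. By edgeR 5 of the 15 fell and 2 rose in the Mut clones (5.62% and 6.49% of all genes), and 2 rose in the lines numbered 3 (6.16%).

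Basement membrane collagens were high in all Myc-high libraries. Col4a1 and Col4a2, the neighbouring genes of type IV collagen of basement membranes, were the collagens counted higher, of 32 collagen and fibrillar matrix genes with a median of -0.60. Over all genes 2.16% were counted higher. By edgeR 2 of the 32 rose and 1 fell in the Mut clones (6.49% and 5.62% of all genes). In the lines numbered 3, 8 rose (6.16%). The list median was highest in the Myc-low TL1 3a of that group, at 1.74, with 0.77 in TL1 3b and 0.30 in TL2 3. It was -0.77 in Mut clone 2 and -0.39 in Mut clone 1, and -0.59 to 0.57 in the other Myc-low libraries. Col4a2 had 507, 412, 210 and 168 CPM in the Myc-high libraries and 6.39 to 104 CPM in the Myc-low ones, and Col4a1 had 291, 356, 152 and 143 CPM and 7.61 to 110 CPM. TL1 3a gave the top Myc-low value of both. With the line number as a block, which sets TL2 3 and TL1 3b against TL1 3a alone, the class difference was 0.419 for Col4a1 and 0.854 for Col4a2. Without the block it was 2.575 and 3.064. Col4a2 rose by 4.26 ± 0.53 (log2, SE) in the Mut clones (n = 2 against 7, edgeR adjusted p = 0.00349) and by 2.75 ± 0.49 in the lines numbered 3 (n = 3 against 7, edgeR adjusted p = 0.013). Without any 1 library those adjusted p stayed at or below 0.0436 and 0.0391.

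The monocyte attractants Ccl2 and Ccl7 were the chemokines counted higher, of 17 tested, beside 2.16% of all genes. By edgeR 4 of the 17 rose and 2 fell in the Mut clones (6.49% and 5.62% of all genes). In the lines numbered 3, 3 rose (6.16%). Ccl2 had 135, 112, 174 and 111 CPM in the Myc-high libraries against a lowest value of 0.07, a median of 6.66 and a highest of 27.1 CPM in the Myc-low ones. Ccl7 had 55.2, 42.7, 168 and 92.0 CPM in the Myc-high libraries and at most 29.6 CPM in the Myc-low ones. Interferon-stimulated genes were high in only part of the class: all 35 had a positive difference and the median was 2.03. The class count held 1 of them (Mx1), near the 2.16% of all genes. By edgeR 8 of the 35 rose in the Mut clones (6.49% of all genes) and 1 in the lines numbered 3 (6.16%). The list median was 1.82, 3.38 and 3.37 in Mut clone 2, Mut clone 1 and TL2 3, -0.14 in TL1 3b, and 2.51 in the Myc-low TL1 2a.

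Some regulators of position and lineage separated the classes. Hoxc6 had 41.8, 43.6, 69.0 and 66.5 CPM in the Myc-high libraries against a lowest value of 5.32, a median of 9.95 and a highest of 16.03 CPM in the Myc-low ones. Hoxc8, its neighbour in the Hoxc cluster that patterns the trunk and limbs, had 29.2, 20.9, 24.3 and 19 CPM and 2.47 to 6.11 CPM. They were 2 of 18 tested Hox genes, and 0 were lower by the class count, beside 2.16% and 2.47% of all genes. The median was -0.22. By edgeR 5 Hox genes rose and 3 fell in the Mut clones, beside 6.49% and 5.62% of all genes. In the lines numbered 3, 3 rose and 5 fell, beside 6.16% and 3.78%. Ebf3, an early B cell factor also made by marrow stroma, had 0.40, 0.15, 0.19 and 0.08 CPM in the Myc-high libraries and 22.6 to 35.1 CPM in the Myc-low ones. Its relative Ebf1 had 25.9, 20.7, 16.2 and 18.4 CPM in the Myc-high libraries and 1.94 to 10.7 CPM in the Myc-low ones. The 2 family members thus stood on opposite sides.

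The libraries outside the classes had levels on both sides. Ebf3 had 26.2 to 52.9 CPM in the 3 MSC libraries and at most 0.16 CPM in the KO clones. Over all genes counted, both KO clones were on the Myc-low side at 238 of the 290 higher and 244 of the 331 lower genes, and on the Myc-high side at 4 and 20. All 3 MSC libraries were on the Myc-low side at 133 and 158 and on the Myc-high side at 38 and 59. A library was put on a side when it lay at or beyond the edge of that class's range that faces the other class. These genes were picked in the libraries of the classes, so the counts are a description. The titles also call the KO clones clones of a first-generation line, and the part of that in these counts was not tested.

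Of 30 tested WNT pathway genes 2 were higher and 2 lower, beside 2.16% and 2.47% of all genes, and 7 had a positive difference, with a median of -0.73. Dkk2, a secreted WNT antagonist, had 27.5, 31.6, 286 and 13.2 CPM in the Myc-high libraries and 0.14 to 10.9 CPM in the Myc-low ones. Lef1, a nuclear effector of the pathway, had 0.48, 0.37, 0.44 and 3.12 CPM against 4.29 to 20.5 CPM. For both genes TL1 3b and TL1 3a were the libraries nearest to each other across the classes. Of 26 apoptosis genes 1 was counted higher and 0 lower, near the 2.16% and 2.47% of all genes. By edgeR 1 of the 26 rose and 2 fell in the Mut clones (6.49% and 5.62% of all genes). In the lines numbered 3, 4 rose and 1 fell (6.16% and 3.78%). The gene counted was Bcl2, which blocks mitochondrial cell death, at 22.0, 19.2, 30.7 and 41.6 CPM against 6.68 to 16.03 CPM. It lies on chromosome 1 in a run of 5 neighbouring genes that all separated the classes as higher, with a median log2 difference of 0.88. Axl, a receptor tyrosine kinase and YAP target, had 1021, 1772, 1559 and 1007 CPM in the Myc-high libraries and 405 to 780 CPM in the Myc-low ones.

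The largest differences were in genes at low levels in one of the classes. Efemp1, which encodes fibulin-3 of elastic fibres, had 14.9, 19.9, 58.3 and 91.6 CPM in the Myc-high libraries and at most 0.13 CPM in the Myc-low ones. Crabp1, a binding protein of retinoic acid, had 310, 282, 825 and 11.9 CPM against 0.07 to 5.05 CPM. Hmgcll1, an enzyme of ketone body synthesis, had 19.5, 20.5, 21.8 and 22.2 CPM, the most even of them, against at most 0.64 CPM. The rest of the 12 largest higher genes were Slit3, Mab21l2, Itgbl1, Ndufa4l2, Apod, Car8, Odf3l1, Mx1 and Htatip2, with log2 differences of 5.06 to 9.29. Several of these values rest on few libraries. Slit3 had 5.72, 1.48, 104 and 0.152 CPM in the Myc-high libraries and at most 0.14 CPM in the Myc-low ones, and its difference was 5.81 without TL2 3. Taking the Mut clones alone, the difference was 2.54 for Car8 and 3.67 for Ndufa4l2. With the line number as a block, which sets TL2 3 and TL1 3b against TL1 3a alone, the difference was 2.63 for Htatip2. In the MSC libraries Efemp1 had 13.3 to 40.6 CPM and Hmgcll1 4.11 to 8.08 CPM, above the whole Myc-low range of both genes.

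On the other side, Tiam1, an activator of the small GTPase Rac, had 0 counts in both Mut clones and TL2 3 and 0.68 CPM in TL1 3b, and 18.0 to 27.9 CPM in the Myc-low libraries. Ptprd, a receptor tyrosine phosphatase, had 1 count in all 4 Myc-high libraries together and 5.58 to 32.7 CPM in the Myc-low ones. Heph, the ferroxidase of intestinal iron export, had 0 counts in the Myc-high class and was at least 232.5-fold lower by its floor of 3 counts over the class. In the Myc-low class Heph itself ran from 0.07 to 62.3 CPM and was above 10 CPM only in the 3 lines numbered 1. The other large lower genes were Slc6a15, Inhbb, Rps6ka6, Amigo2, Ebf3, Hs6st2, Setbp1, Tspan7 and Sox11, with log2 differences of -8.60 to -6.53.

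Among the genes with the smallest adjusted p in both tests, several had TL1 3a next to the Myc-high libraries. Ror2, a receptor of WNT5A, had 65.8, 58.5, 41.9 and 31.8 CPM in the Myc-high libraries and 31.3 CPM in TL1 3a, and at most 0.93 CPM in the other 7 Myc-low libraries. Hic1, a repressor that p53 induces, had 20.4, 21.5, 40.8 and 9.35 CPM in the Myc-high libraries, 5.65 in TL1 3a and at most 0.46 in the others. Ptges, which makes prostaglandin E2, had 46.5, 60.0, 123 and 108 CPM in the Myc-high libraries, 34.4 in TL1 3a and at most 3.12 in the others. Ror2 rose by 8.93 ± 0.70 (log2, SE) in the Mut clones (n = 2 against 7, edgeR adjusted p = 0.000306) and by 8.10 ± 0.67 in the lines numbered 3 (n = 3 against 7, edgeR adjusted p = 0.000404). Without any 1 library those adjusted p stayed at or below 0.00548 and 0.00287. Within number 3 Ror2 did not separate the classes, with TL1 3b at 31.8 and TL1 3a at 31.3 CPM, and its class difference was 0.23 with the line number as a block, against 3.56 without it. Cd34, a sialomucin of stromal and blood progenitors, had 650, 354, 860 and 344 CPM in the Myc-high libraries, 330, 225 and 162 CPM in the lines numbered 1, 94.2 in TL1 3a and at most 1.19 CPM in the lines numbered 2.

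Positions of the counted genes were uneven. Chromosome 8 held 81 of the 331 lower genes, or 11.2% of its 726 tested genes against 2.47% over all, and had a median log2 difference of -0.65. Between 80 and 90 Mb of it 23 of 85 tested genes were lower. Gipc1, an adaptor of receptor trafficking in that stretch, had 66.3, 67.4, 84.8 and 69.9 CPM in the Myc-high libraries, 89.2 in TL1 3a and 174 to 333 CPM in the other Myc-low libraries. Ndufb7, a subunit of respiratory complex I nearby, had 38.6, 41.1, 39.8 and 46.5 CPM in the Myc-high libraries, 55.0 in TL1 3a and 97.8 to 270 CPM in the others. Brd7 and Wwp2, also on chromosome 8, gave TL1 3a as the nearest Myc-low library too, and Aars and Junb lie on the same chromosome.

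Chromosome 1 held 47 of the 290 higher genes, or 6.12% of its 768 tested genes against 2.16% over all, with a median of 0.48; Bcl2, Cd34 and Twist2 are among them. Taken per library, the median level of chromosome 8 genes was -0.40 to -0.20 in the Myc-high and -0.06 to 0.38 in the Myc-low libraries, and that of chromosome 1 genes 0.27 to 0.47 and -0.43 to 0.22. In both cases TL1 3a was the Myc-low library nearest to the Myc-high class, at -0.06 and 0.22. Chromosome 7 held 43 of the higher genes (4.45% of its 967) and chromosome 6 held 32 of the lower genes (4.89% of its 654). Chromosome 15, which carries Myc, had 10 higher and 10 lower genes of 543 and a median of -0.05.

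**Figure D5:**
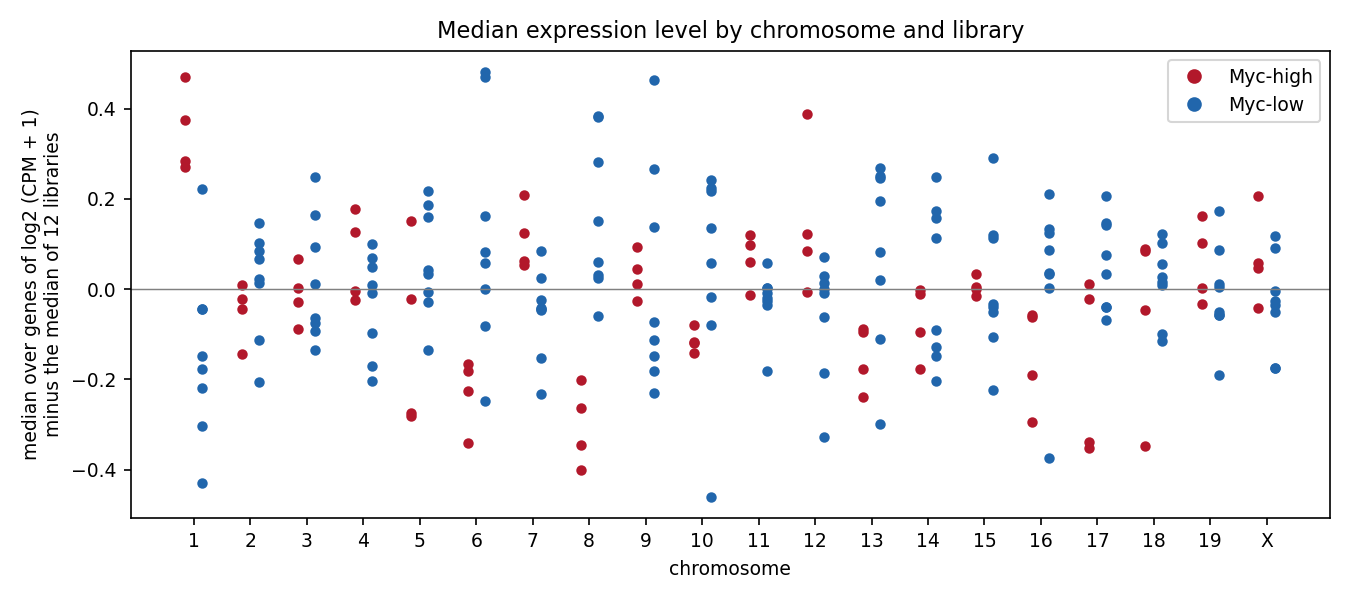
Median over genes of log2 (CPM + 1) minus the gene's median over the 12 libraries, for each chromosome, with 1 point per Myc-high (red, left) and Myc-low library (blue, right). The classes do not overlap for chromosome 1, at 0.27 to 0.47 against -0.43 to 0.22, or for chromosome 8, at -0.40 to -0.20 against -0.06 to 0.38.

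Yap1 and its neighbour Birc2 on chromosome 9 were low in every Myc-high library and split the Myc-low class. Yap1, the effector of the Hippo pathway, had 122, 152, 134 and 131 CPM in the Myc-high libraries, 103 to 191 CPM in TL1 1b, TL2 1 and TL1 3a, and 1333 to 2792 CPM in TL1 1a and the 4 lines numbered 2. Birc2, an inhibitor of apoptosis next to it, had 11.9 to 15.2 CPM in the Myc-high libraries and followed the same split, at 11.2 to 34.4 CPM and 168 to 255 CPM.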

How the data were processed

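RNA-seq was deposited as whole-number counts per gene in 1 table, and the counts were used as deposited. Per the submitters' processing notes, the authors worked on the mm10 build with TopHat2 2.0.10, DESeq2 1.6.3, HTSeq 0.6.1p1 and cutadapt; the strand setting and annotation were not given in the sources used here, so reads of overlapping genes may be shared. Columns were matched to samples by the numbers in the titles, and 4 columns that match no sample were not used. Gene positions came from the RefSeq table of GRCm38.p6 (23260 of 23420 symbols matched).

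Genes with low counts were removed with filterByExpr on the title groups, counts were scaled by TMM, and quasi-likelihood models were fitted in edgeR 4.0.16 (limma 3.58.1, DESeq2 1.42.0, R 4.3.3). The class fit gives log2 differences and standard errors and no p. The tests compare Mut clones, or lines numbered 3, with the mean of the lines numbered 1 and 2, in 1 fit of 12 libraries. Each line's deviation from the mean of its generation was averaged by number within TL1 and within TL2. The TL1 and TL2 averages correlated at 0.433, 0.334 and 0.498 for numbers 1, 2 and 3. The fits were tested on simulated data. P-values measure only the spread between these samples. The members and the gene lists were chosen with earlier results of these data known. Named genes were Myc, Pvt1 and their neighbours within 5 Mb, the 12 largest differences in each direction at a mean of 10 CPM or more, up to 4 separating members per list, a fixed set of known genes, and the 6 in each direction with the smallest adjusted p in both tests; Pgk1, Birc2 and the cell markers Vim, Cd44, Pdgfrb, Eng, Nt5e, Ly6a, Thy1, Ptprc and Cdh5 stand outside that rule and were chosen after their values were seen. Alternatives were other scalings, no filter, DESeq2, limma-voom, each library left out, other folds and a block by line number.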

Additional observations from a re-analysis of the deposited data

Results flagged for a closer look

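A sample is listed here when, within its class, its gap to the nearest other sample was large against the range of the class by Dixon's 95% criterion. Chance gives about 1 such sample in 20 classes; 186 combinations of a named gene and a class were examined and 21 were listed, 10 in the Myc-high and 11 in the Myc-low class. All values are TMM-scaled CPM.

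TL1 3b was listed for 8 genes among the Myc-high libraries. It was the low library for Fam84b, at 4.87 against 946.6 to 1857 CPM in the other 3, and for 9930014A18Rik, at 1.22 against 76.3 to 121 CPM. It was the high library for Des at 54.6, Myod1 at 117, Lef1 at 3.12, Vgll3 at 6.46, Tiam1 at 0.684 and Ptprd at 0.076 CPM, where the other 3 had at most 0.52, 0.16, 0.48, 0.25, 0 and 0 CPM in the same order. TL2 3 was listed for Fgf10, a growth factor of limb and lung buds, at 43.6 CPM against 4.79 to 6.19 CPM, and for Slc6a15, at 0.0631 CPM (1 count) against 0.

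TL1 3a was listed for 7 genes among the Myc-low libraries. It was the low library for Ruvbl2, at 45.01 against 81.6 to 119 CPM in the other 7. It was the high library for Met, the receptor of hepatocyte growth factor, at 2502 against 144 to 405 CPM, for Ror2 at 31.3 against at most 0.93, for Hic1 at 5.65 against at most 0.46, for Ptges at 34.4 against at most 3.12, for Aldoc at 10.6 against at most 0.84 and for Htatip2 at 4.37 against at most 1.03 CPM. TL1 2a was listed for Itgb7, at 83.3 against 7.18 to 21.8 CPM, and for 9930014A18Rik, at 1.82 against 0.20 to 0.79 CPM. TL1 1a was listed for Mycn, at 4.37 against at most 1.22 CPM, and TL2 2b for Cdkn2b, at 0.934 against 22.2 to 134 CPM.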

How the results depend on the processing

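The class count gave 440 higher genes at 1.5-fold, and 148 higher and 188 lower at 4-fold. The Mut clones alone against the 8 Myc-low libraries gave 731 higher and 1126 lower genes, and the 2 Myc-high lines alone changed neither count by more than 1.5 times. With the line number as a replicate block in the 10 lines, 1046 genes were higher and 1758 lower, of which 156 and 230 were among the 290 and 331. The tests between titles could not be blocked, since the number is their group. Leaving out 1 library gave 295 to 472 higher and 314 to 698 lower genes in the class count, 25 to 1150 risen and 6 to 1062 fallen in the Mut clones, and 311 to 847 risen and 74 to 570 fallen in the lines numbered 3. In the Mut clones DESeq2 called 1631 genes fallen and limma-voom 463. In the lines numbered 3 DESeq2 called 1246 risen and 1018 fallen, and a fit of the libraries of those 2 groups alone called 489 and 265. The cause of these shifts was not tested. Scaling by library totals moved the median log2 difference of all genes in the lines numbered 3 to 0.12, against 0.01 as reported. The other scalings and the absence of a count filter left each count within 1.5 times. Of 2397 alternative log2 differences of 127 named genes, 139 moved by more than the spread and 32, of 13 genes, changed sign. Of those 32, 8 came with the block, among them Mycl1 (-0.90), Cdk4 (1.05), Mki67 (0.53) and Npm1 (0.84), and none was of a gene that separated the classes. With any 1 library left out, 10 of 60 calls of named genes in the Mut clones and 26 of 47 in the lines numbered 3 kept their adjusted p below the threshold. What depth limits was not tested.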

Other observations

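Further lists held single genes on either side, and over all genes 2.16% were counted higher and 2.47% lower. Of 15 tested genes of glutamine and amino acid uptake 0 were counted in either direction, 10 had a positive log2 difference and the median was 0.41. Their list median was 1.21 and 0.59 in Mut clone 2 and Mut clone 1, 0.51 in TL2 3 and -0.60 in TL1 3b, against -0.41 to 0.50 in the Myc-low libraries. Of 24 matrix proteases and inhibitors 2 (Mmp10 and Adamts2) were lower, with 3 positive and a median of -1.38. Of 27 genes of the TGF-beta and BMP pathway Bmp6 was higher, and Tgfbr2 and Bmp4 were lower. Bmp4, a morphogen of mesoderm, had 1.29, 0.07, 0.25 and 0.61 CPM in the Myc-high libraries and 1.89 to 36.6 CPM in the Myc-low ones. Of 26 genes of sterol and fatty acid synthesis 0 were counted in either direction, with a median of -0.19.

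Integrins and laminins had 4 higher and 2 lower genes of 24, beside 2.16% and 2.47% of all genes. By edgeR 3 rose and 1 fell in the Mut clones (6.49% and 5.62% of all genes). In the lines numbered 3, 7 rose and 0 fell (6.16% and 3.78%). Itgb7, the integrin chain of gut-homing lymphocytes, had 298, 321, 164 and 117 CPM in the Myc-high libraries and 7.18 to 83.3 CPM in the Myc-low ones. Nes, the intermediate filament nestin of progenitor cells, was lower, at 69.3, 88.3, 76.7 and 114 CPM in the Myc-high libraries against 256 to 1114 CPM in the Myc-low ones. Twist2, a mesenchymal transcription factor, was higher, at 66.5, 87.5, 105 and 54.7 CPM against 2.04 to 23.2 CPM.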
